A study of Rattus norvegicus with 9 samples.

Results

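Ribosome biogenesis factors are the proteins that transcribe, cut, modify and fold ribosomal RNA and bring it together with the ribosomal proteins, without becoming part of the finished ribosome. Levels of their transcripts were compared in the tibialis anterior muscle (TIB), a hindlimb muscle, of fed and fasted rats. A set of 60 such genes was listed by name, and each was read from a probe set that the annotation of the platform assigns to exactly that 1 gene. Where a gene had several such probe sets, the one with the highest mean over the 9 arrays stood for it. Of the 60 genes, 52 were measured in this way, out of 14503 genes with a probe set of their own on the array. Rrn3, Wdr36, Utp6, Utp20, Rrp12, Pes1, Nop2 and Rrp1b had no probe set of their own and were not analysed here. No filter on low intensity was applied, so all 52 entered every test.

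The samples came from young adult male Sprague Dawley rats, with 3 rats and 1 array per rat in each of 3 groups. Fed rats were not fasted and had a full stomach at sampling. P2 rats were fasted into phase 2, the long stage in which body protein is spared, and P3 rats were fasted into phase 3, when body mass is lost faster and body protein is broken down, and were killed on the day after its onset. All rats had water and no other treatment. Phases were assigned from the daily loss of body mass of each rat. Values are log2 intensities of probe sets on Affymetrix Rat Gene 1.0 ST arrays. A difference of 1 on this scale is a 2-fold difference, and a change was called where the limma test gave an adjusted p under 0.05 over all 29215 probe sets. Array medians lay between 5.80 and 5.90. Correlations between arrays were 0.987 to 0.994 within groups and 0.957 to 0.987 between groups. The labelled tissue was checked against its markers. The skeletal muscle transcripts Acta1 and Ckm and the fast fiber transcript Myh4 were at 13.41 to 13.98 in all 9 arrays. In whole muscle, fewer cells of a type and less RNA per cell cannot be told apart.

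Ribosome assembly starts in the nucleolus, where RNA polymerase I copies the ribosomal DNA into 1 long precursor. Small nucleolar ribonucleoproteins (snoRNPs) of the box C/D and box H/ACA classes then guide methylation and pseudouridylation of this RNA, and large sets of scaffold proteins, helicases and GTPases separate and mature the precursors of the small and the large subunit. In skeletal muscle, the number of ribosomes is a main determinant of the capacity for protein synthesis, and the transcription factor Myc is a known activator of many genes of this pathway.

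The hexamer CACGTG, the E-box bound by Myc with its partner Max, was looked for in the promoters of the factors, from 250 bases before to 50 bases after the start of transcription in RefSeq (build GRCr8). The hexamer is its own reverse complement, so that both strands are searched at once. Promoters were in the table for 54 of the 60 genes, and Wdr43, Ddx52, Bop1, Rrs1, Gnl2 and Pop7 had no entry. CACGTG was present in 17 of the 54 (31.5%), against 6.42% of all 33469 promoters in the table and 7.77% of the 12542 promoters of genes with a probe set of their own. The median GC content was 58.0% in the promoters of the factors and 58.0% in those of genes with a probe set of their own. By role, the hexamer was in 8 of 17 large subunit promoters, 7 of 21 small subunit promoters and 1 of 5 H/ACA promoters. It was in 1 of 3 box C/D promoters, 0 of 5 polymerase I promoters and 0 of 3 promoters of nucleolar proteins with broad roles. It lay before the start site in 9 genes and only after it in the other 8. The stretches around it are shown for the 7 measured genes that have it before the start site, 5′ to 3′ on the strand of the gene. CACGTG is in capitals, with at most 40 bases on each side. The stretches of Rpf2, Ddx18 and Rrp1 end at the start site, and those of Ltv1, Utp18, Wdr75 and Dkc1 end before it.
Rpf2: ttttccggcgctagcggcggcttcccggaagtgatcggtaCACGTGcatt
Ddx18: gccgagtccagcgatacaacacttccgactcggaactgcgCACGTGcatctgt
Rrp1: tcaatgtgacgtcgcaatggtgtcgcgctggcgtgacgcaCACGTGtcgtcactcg
Ltv1: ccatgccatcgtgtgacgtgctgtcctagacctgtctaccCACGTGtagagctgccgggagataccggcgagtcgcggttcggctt
Utp18: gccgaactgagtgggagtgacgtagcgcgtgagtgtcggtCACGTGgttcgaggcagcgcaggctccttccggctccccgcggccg
Wdr75: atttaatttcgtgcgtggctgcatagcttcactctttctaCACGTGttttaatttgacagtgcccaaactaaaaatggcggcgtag
Dkc1: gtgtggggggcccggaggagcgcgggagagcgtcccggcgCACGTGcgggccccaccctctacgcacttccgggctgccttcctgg
These stretches are chr20:45205984-45206033 (minus strand), chr13:35295973-35296025 (minus), chr20:10260524-10260579 (plus), chr1:9398573-9398658 (minus), chr10:79335802-79335887 (minus), chr9:55395032-55395117 (plus) and chrX:157751427-157751512 (plus). The hexamer began 10 bases before the start site in Rpf2 and 184 bases before it in Dkc1. Utp18 had a further copy just after its start. A match of these letters describes the sequence and does not show binding.

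In P3, transcripts of the ribosome biogenesis factors were higher than in fed muscle for most of the set. Of the 52 measured genes, 46 rose in P3 versus Fed and 1 fell, where 15.8% of all probe sets rose and 13.4% fell. Among all 14503 genes with a probe set of their own, 18.3% rose. The set was chosen with earlier results of these data known, so these shares describe it and do not test it. The median change of the 52 genes was 0.99 on the log2 scale, beside 0.00 over all probe sets. Of the 46, 26 rose by over 2-fold, as did 1412 of all 29215 probe sets. For 47 genes all 3 P3 rats lay above all 3 Fed rats, which held for 22.3% of all probe sets. The 5 genes that were not called were Nop56, Fbl, Noc4l, Nop16 and Rrp15, with changes between -0.06 and 0.23. The gene that fell was Pop7.

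A smaller change was present in P2. In P2 versus Fed, 23 of the 52 genes rose and Pop7 fell, beside 5.13% and 4.15% of all probe sets. The median change was 0.30 on the log2 scale, against 0.01 over all probe sets. Nob1 alone rose by over 2-fold, as did 239 of all 29215 probe sets. The number of called genes depended on single rats, with 14 genes higher when P2 replicate 3 was left out. Between the fasted groups, 41 of the 52 genes were higher in P3 than in P2 and 0 lower (limma), beside 8.5% and 7.52% of all probe sets, with a median difference of 0.66. At an unadjusted p under 0.05, 43 of the 52 genes were higher in P3 than in P2 and 0 lower. By the methods' analysis of variance, at a Tukey p under 0.001, 20 genes were higher in P3 than in P2 and 0 lower, and 7 were higher in P2 than in Fed. The shares of all probe sets given above are those of the limma calls and do not apply to the unadjusted p or the Tukey p.

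**Figure D1:**
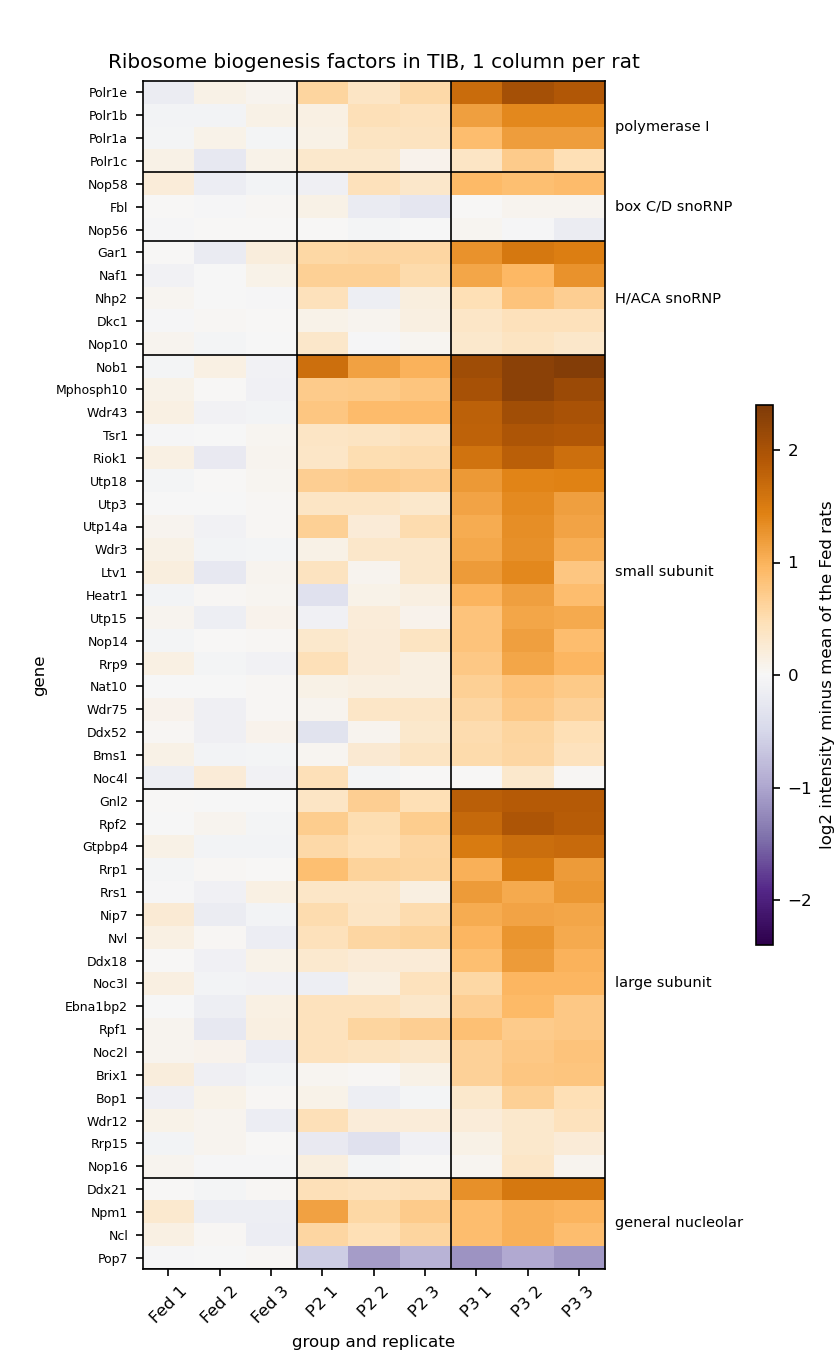
Log2 intensity of each of the 52 genes minus its mean over the 3 Fed rats (colour scale), with 1 column per rat (Fed, P2, P3) and genes grouped by role and ordered by their change in P3. Orange cells fill most of the P3 columns and are paler in the P2 columns, while Nop56 and Fbl show little colour in P3 and Pop7 is purple in all 6 fasted rats.

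**Figure D2:**
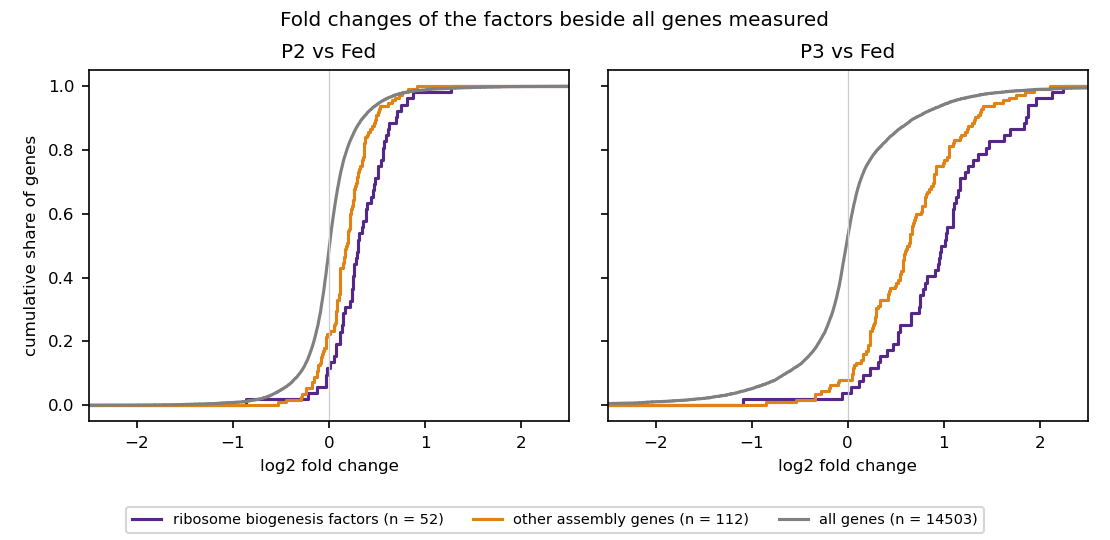
Cumulative share of genes (vertical axis) by log2 fold change (horizontal axis) in P2 versus Fed (left) and P3 versus Fed (right), for the 52 ribosome biogenesis factors, 112 other genes of ribosome assembly and all 14503 genes. The curve of the factors lies right of that of all genes in both panels, with medians of 0.30 in P2 and 0.99 in P3.

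The mean over the 52 genes, taken per rat and relative to the Fed mean, was 0.34, 0.30 and 0.34 in P2 rats and 0.88, 1.06 and 0.97 in P3 rats, against 0.04, -0.04 and 0.00 in Fed rats. No rat of any group reached the values of another group. Within P3, replicate 1 was the lowest of its group for 42 of the 52 genes and replicate 2 the highest for 37, so the genes varied together among the P3 rats. The median standard deviation of a gene over 3 rats was 0.11 in Fed, 0.13 in P2 and 0.13 in P3. Leaving out any 1 of the 9 arrays gave 42 to 46 genes higher in P3 than in Fed, with a median change of 0.94 to 1.04.

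The listed subunits of RNA polymerase I, the enzyme that transcribes the ribosomal RNA precursor, were higher in P3. Against Fed, 4 of the 4 measured factors of this role rose in P3 and 1 of them in P2, with a median change of 1.20 in P3. Of 4 subunits outside the set, Polr1f and Polr1g rose by 0.34 and 0.65 in P3, while Polr1d and Polr1h had differences of 0.26 and 0.06 in P3 that were not called (adjusted p 0.208 and 0.754). Polr1e, a subunit particular to polymerase I, was at 6.80, 7.10 and 7.05 in Fed rats, 7.60, 7.34 and 7.54 in P2 rats and 8.67, 9.02 and 8.90 in P3 rats. The 3 groups did not overlap. It rose by 1.88 ± 0.12 (SE, 3.68-fold) in P3 versus Fed, with an adjusted p of 5.85e-06. Its rise of 0.51 ± 0.12 in P2 had an adjusted p of 0.0313 and lost its call (adjusted p 0.0537 to 0.104) without any 1 of the Fed replicates, P2 replicate 1, P2 replicate 3 or P3 replicate 3. Polr1a and Polr1b, which together form the catalytic centre, rose by 1.1 and 1.31 in P3 (adjusted p 8.66e-05 and 2.35e-05), and their changes of 0.30 and 0.34 in P2 were not called (adjusted p 0.15 and 0.0948), although that of Polr1b was called without P2 replicate 1 (0.0263). Polr1c, a subunit shared with RNA polymerase III, rose least, by 0.52 ± 0.13 in P3 (adjusted p 0.0156), and was not called without Fed replicate 2 (0.0529) or P3 replicate 2 (0.0551).

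The 3 listed core proteins of the box C/D snoRNPs, which carry out the guided methylation of ribosomal RNA, did not move as the other roles did. Only Nop58 of the 3 rose, by 0.91 ± 0.15 in P3 versus Fed (adjusted p 0.00152). Nop56, its partner in the same particle, was at 9.39, 9.42 and 9.43 in Fed rats, 9.43, 9.37 and 9.40 in P2 rats and 9.46, 9.39 and 9.23 in P3 rats. Its groups overlapped, with a difference of -0.06 ± 0.07 between P3 and Fed (adjusted p 0.637). Fbl, the methyltransferase fibrillarin, was at 7.84, 7.80 and 7.86 in Fed rats, 7.95, 7.63 and 7.57 in P2 rats and 7.84, 7.89 and 7.89 in P3 rats. Here too the groups overlapped, and the difference of 0.04 ± 0.10 between P3 and Fed was not called (adjusted p 0.806). Snu13, a further core protein of the particle outside the set, differed by -0.28 ± 0.13 between P3 and Fed and was not called (adjusted p 0.15). Whether box C/D proteins differ from the other roles as a class was not tested.

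All 5 proteins of the H/ACA snoRNPs, which convert uridine to pseudouridine in ribosomal RNA, rose in P3 versus Fed. Gar1, a core protein of the particle, was at 6.76, 6.56 and 6.95 in Fed rats, 7.33, 7.35 and 7.35 in P2 rats and 8.05, 8.31 and 8.22 in P3 rats. These levels did not overlap between the groups, and Gar1 rose by 0.59 ± 0.11 in P2 (adjusted p 0.0101) and by 1.44 ± 0.11 in P3 (adjusted p 1.29e-05). Naf1, which assembles the particle and is replaced in it by Gar1, rose by 0.61 in P2 (adjusted p 0.00542) and by 1.11 in P3 (adjusted p 3.13e-05). Dkc1, the pseudouridine synthase dyskerin, with the hexamer far upstream in the sequence above, rose by 0.41 ± 0.06 in P3 (adjusted p 0.00108), while its difference of 0.11 in P2 was not called (adjusted p 0.368). Nhp2, another core protein, rose by 0.66 in P3 (adjusted p 0.00681). Nop10, a small core protein of the particle, rose by 0.34 ± 0.10 (adjusted p 0.0252) and was not called when any 1 of Fed replicates 2 and 3 or any 1 of the P3 rats was left out (adjusted p 0.0525 to 0.084).

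Among 19 measured factors of the small subunit, 18 rose in P3 versus Fed, 8 rose in P2 versus Fed and 17 were higher in P3 than in P2. Their median change was 0.28 in P2 and 1.13 in P3. By over 2-fold, 12 of them rose in P3, as did 1412 of all 29215 probe sets. Nob1, the endonuclease that makes the last cut at the 3′ end of the small subunit RNA, was at 7.63, 7.82 and 7.60 in Fed rats, 9.33, 8.84 and 8.68 in P2 rats and 9.78, 9.96 and 10.04 in P3 rats. It had the largest change of the 52 genes in both phases, with a rise of 1.27 ± 0.16 (2.41-fold, adjusted p 0.0017) in P2 and 2.24 ± 0.16 (4.73-fold, adjusted p 9.55e-06) in P3. Its 3 P2 rats spread more widely, with a standard deviation of 0.34, than its Fed or P3 rats, with 0.12 and 0.13.

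Mphosph10, a protein of the U3 snoRNP, which is needed for early cuts of the precursor, was at 8.42, 8.33 and 8.21 in Fed rats, 9.05, 9.06 and 9.11 in P2 rats and 10.34, 10.59 and 10.44 in P3 rats. The rise was 0.75 ± 0.09 in P2 (adjusted p 0.00113) and it was 2.13 ± 0.09 in P3 (4.38-fold, adjusted p 5.07e-07), with no overlap between any of the groups. Wdr43, part of the complex that links transcription of the precursor to its processing, was at 8.69, 8.46 and 8.48 in Fed rats, 9.33, 9.46 and 9.46 in P2 rats and 10.36, 10.61 and 10.54 in P3 rats. It rose by 0.88 ± 0.09 in P2 (adjusted p 0.000855) and by 1.96 ± 0.09 in P3 (3.90-fold, adjusted p 1.23e-06). Utp18, a scaffold protein of the early small subunit particle and the gene with 2 hexamers, rose by 0.70 ± 0.07 in P2 (adjusted p 0.000855) and by 1.36 ± 0.07 in P3 (adjusted p 2.54e-06).

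Tsr1, which acts late on the particle before it joins translation, rose mainly between the phases. Its levels were 8.93, 8.96 and 9.01 in Fed rats, 9.33, 9.36 and 9.41 in P2 rats and 10.75, 10.93 and 10.88 in P3 rats. The difference between P3 and P2, 1.49 ± 0.07 (adjusted p 5.22e-06), was the largest of the 52 genes in that comparison, and the rise in P2 versus Fed was 0.40 ± 0.07 (adjusted p 0.00879). Heatr1, a large scaffold protein needed for transcription and processing of the precursor, was at 7.45, 7.55 and 7.56 in Fed rats, 7.17, 7.62 and 7.68 in P2 rats and 8.51, 8.70 and 8.41 in P3 rats. Fed and P2 rats overlapped, with a difference of -0.03 ± 0.14 (adjusted p 0.933), while P3 exceeded P2 by 1.05 ± 0.14 (adjusted p 0.000845). Noc4l, which in yeast is a partner of Nop14 in the early particle, differed by 0.12 ± 0.16 between P3 and Fed and was not called (adjusted p 0.647). The remaining 12 small subunit factors, Utp15, Wdr75, Wdr3, Utp3, Utp14a, Rrp9, Nop14, Nat10, Bms1, Ltv1, Riok1 and Ddx52, all rose in P3, by 0.52 (Bms1) to 1.69 (Riok1). Of these, Ddx52 was not called in P3 versus Fed without Fed replicate 1 or 2 or any 1 of the P3 rats (adjusted p 0.0515 to 0.0837).

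**Figure D3:**
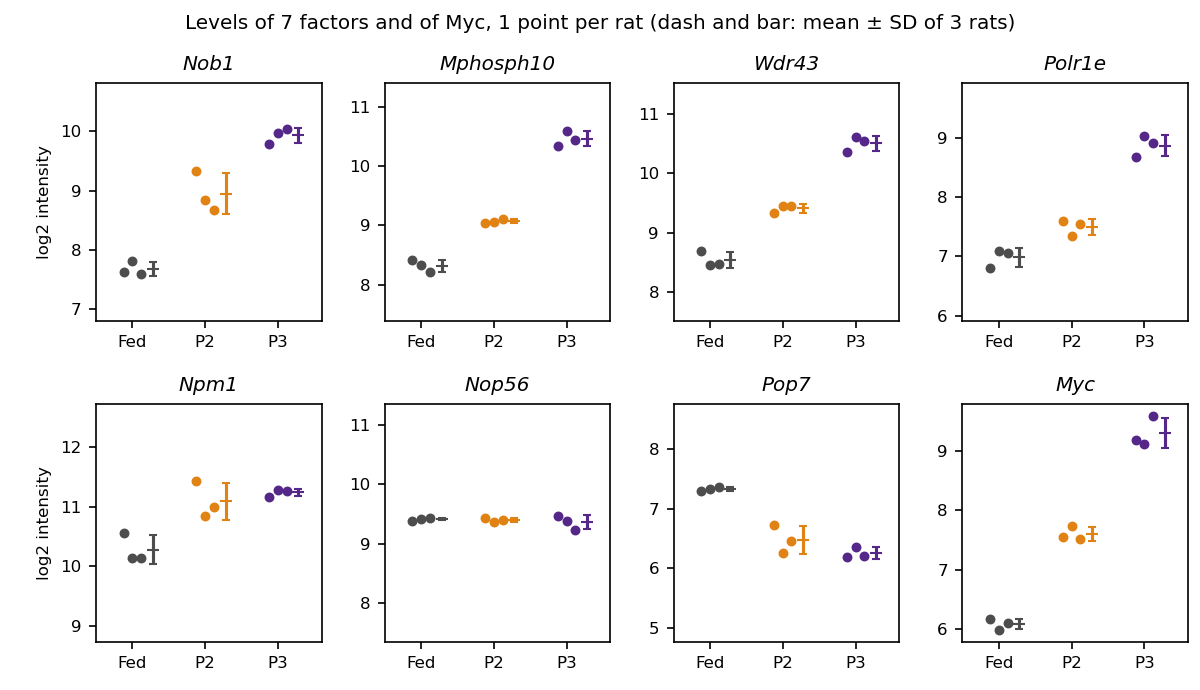
Log2 intensity (vertical axis, 4 units high in each panel) of 7 factors and of Myc in Fed, P2 and P3 rats, with 1 point per rat and a dash and bar for the mean ± SD of 3 rats. Nob1, Mphosph10, Wdr43 and Polr1e step up from Fed to P2 to P3, Npm1 overlaps between P2 and P3, Nop56 overlaps among all groups and Pop7 is lower in both fasted groups.

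Large subunit factors rose against Fed in 15 of 17 cases in P3 and in 9 of 17 in P2, with median changes of 0.83 in P3 and 0.39 in P2. Gnl2, a GTPase that in yeast acts on the large subunit before it leaves the nucleus, was at 8.51, 8.50 and 8.50 in Fed rats, 8.86, 9.18 and 8.99 in P2 rats and 10.34, 10.38 and 10.38 in P3 rats. It rose by 0.51 ± 0.08 in P2 (adjusted p 0.00703) and by 1.86 ± 0.08 in P3 (3.63-fold, adjusted p 9.08e-07), and the 3 groups did not overlap. Rpf2, which brings 5S ribosomal RNA into the large subunit and has the hexamer 10 bases before its start, was at 7.21, 7.28 and 7.17 in Fed rats, 7.93, 7.71 and 7.92 in P2 rats and 8.94, 9.17 and 9.08 in P3 rats. The rise was 0.63 ± 0.09 in P2 (adjusted p 0.00297) and it was 1.84 ± 0.09 in P3 (3.58-fold, adjusted p 1.24e-06). Its partner Rrs1 rose by 1.17 in P3.

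Gtpbp4, a nucleolar GTPase, rose by 0.54 in P2 (adjusted p 0.00492) and by 1.63 in P3 (adjusted p 1.81e-06). A separate probe set of Gtpbp4 gave 0.43 and 1.43, both called. Rrp1, a nucleolar protein of the large subunit precursor, rose by 0.71 in P2 (adjusted p 0.0094) and by 1.25 in P3 (adjusted p 7.76e-05). Rpf1, of the same family of RNA-binding proteins as Rpf2, had rises of 0.57 in P2 (adjusted p 0.0161) and of 0.78 in P3 (adjusted p 0.000824). The difference of 0.20 ± 0.11 between P3 and P2 was not called (adjusted p 0.332), and the P2 call of Rpf1 was lost without P2 replicate 2 (0.0504) or P2 replicate 3 (0.0644).

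Bop1 and Wdr12, which act with Pes1 as a trimer in cutting the large subunit precursor, had small changes. Bop1 had a difference of -0.03 ± 0.11 in P2 versus Fed (adjusted p 0.924) and rose by 0.47 ± 0.11 in P3 (adjusted p 0.0111). Rrp15, a nucleolar protein of the large subunit precursor, was at 9.64, 9.77 and 9.71 in Fed rats, 9.50, 9.36 and 9.61 in P2 rats and 9.83, 10.02 and 9.95 in P3 rats. Every P2 rat lay below and every P3 rat above the Fed rats. Neither difference from Fed was called, at -0.22 ± 0.09 in P2 (adjusted p 0.179) and at 0.23 ± 0.09 in P3 (adjusted p 0.082), and P3 exceeded P2 by 0.45 ± 0.09 (adjusted p 0.00733). Nop16 had the smallest change of the role in P3, 0.16 ± 0.10, and was not called (adjusted p 0.29). The other 9 genes, Wdr12, Noc2l, Noc3l, Rrs1, Ebna1bp2, Brix1, Ddx18, Nip7 and Nvl, all rose in P3, by 0.32 (Wdr12) to 1.17 (Rrs1). Ebna1bp2 and Nip7 were also called in P2, at 0.39 and 0.47. A second probe set of each gave 0.05 and 0.27 in P2, neither called (adjusted p 0.817 and 0.416, limma). In P3 those probe sets gave 0.56 and 1.02, both called. The call of Wdr12 was the weakest of the 46, at an adjusted p of 0.0454, and was lost when any 1 array other than P2 replicate 1 was left out (0.0507 to 0.147).

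Abundant nucleolar proteins with broad roles had risen in P2 already, as had factors of other roles. Npm1, the chaperone nucleophosmin, was at 10.56, 10.13 and 10.14 in Fed rats, 11.43, 10.84 and 11.00 in P2 rats and 11.17, 11.29 and 11.26 in P3 rats. It rose by 0.81 ± 0.16 in P2 (adjusted p 0.0167) and by 0.96 ± 0.16 in P3 (adjusted p 0.0019), while P2 and P3 rats overlapped and differed by 0.15 ± 0.16 (adjusted p 0.663). The P2 call was lost without Fed replicate 2 (0.0702) or 3 (0.0662). All 4 probe sets of Npm1 gave rises of 0.66 to 0.96 in P2 and 0.82 to 0.98 in P3, but processed copies of this gene are common in the genome, so that its values are uncertain. Ncl, nucleolin, rose by 0.56 ± 0.09 in P2 (adjusted p 0.00589) and by 0.95 ± 0.09 in P3 (adjusted p 5.45e-05). For Ncl, P3 exceeded P2 by 0.39 ± 0.09 (adjusted p 0.0182, limma). Ddx21, a helicase that binds the precursor and polymerase I, was at 8.82, 8.76 and 8.84 in Fed rats, 9.26, 9.23 and 9.26 in P2 rats and 10.11, 10.36 and 10.36 in P3 rats. Its rise was 0.44 ± 0.08 in P2 (adjusted p 0.00994) and 1.47 ± 0.08 in P3 (2.77-fold, adjusted p 2.4e-06). For Ddx21, P3 exceeded P2 by 1.03 ± 0.08 (adjusted p 5.43e-05, limma).

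Pop7, a protein subunit of RNase P and RNase MRP, which cut transfer RNA and ribosomal RNA precursors, was the exception in direction. It was at 7.30, 7.33 and 7.37 in Fed rats, 6.72, 6.25 and 6.46 in P2 rats and 6.18, 6.36 and 6.21 in P3 rats. Every fasted rat lay below every Fed rat, and Pop7 fell by 0.86 ± 0.11 on the log2 scale in P2 (adjusted p 0.00237) and by 1.09 ± 0.11 in P3 (adjusted p 0.000101). P2 and P3 rats overlapped, and their difference was not called (adjusted p 0.262).

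**Figure D4:**
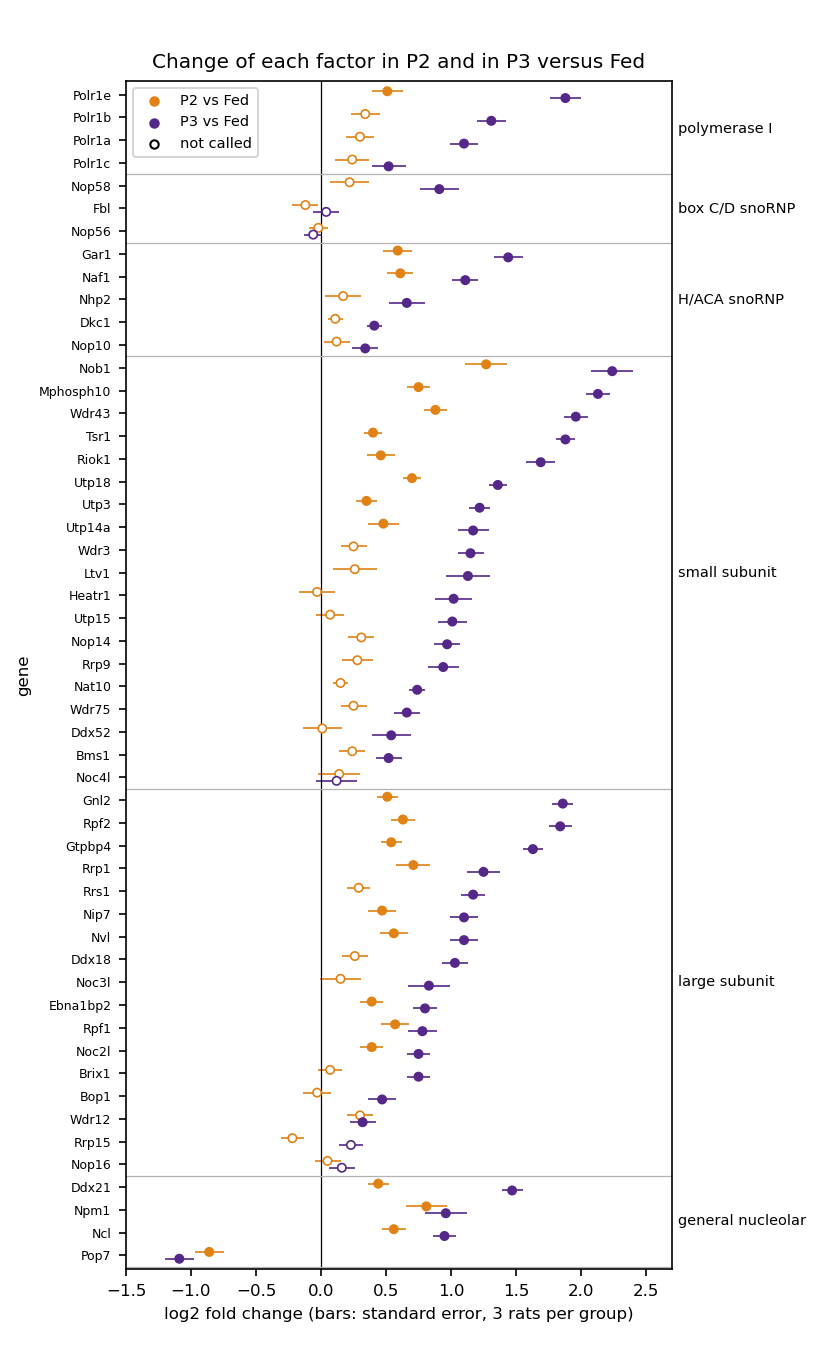
Log2 fold change (horizontal axis, bars are the standard error with 3 rats per group) of each of the 52 genes in P2 versus Fed (orange) and P3 versus Fed (purple), grouped by role. Filled points passed the test, open points did not. The purple points lie right of 0 in all roles except for Nop56 and Pop7, from 0.04 in Fbl to 2.24 in Nob1.

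**Figure D5:**
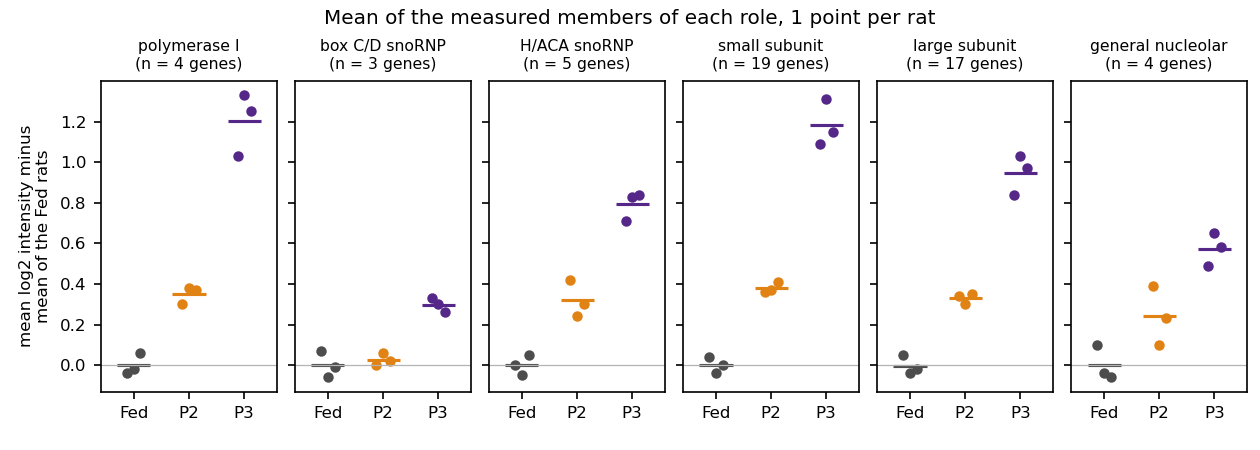
Mean log2 intensity of the measured genes of each role minus the mean of the Fed rats (vertical axis), with 1 point per rat in Fed, P2 and P3 and a line for the group mean. The P3 rats lie above the Fed rats in all 6 roles, least in the box C/D role, where they are at 0.26 to 0.33. The polymerase I role, at 1.03 to 1.33, and the small subunit role, at 1.09 to 1.31, overlap.

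A further 132 genes of ribosome assembly that are not among the 60 were listed by role, and 112 of them were measured. In P3 versus Fed, 80 of the 112 rose and 4 fell, with a median change of 0.63. In P2 versus Fed, 22 rose and 2 fell, with a median of 0.18, and 67 were higher in P3 than in P2 and 0 lower (79 and 1 at an unadjusted p under 0.05). The share that rose in P3, 71.4%, stood beside 15.8% of all probe sets, and that of the 52 factors was 88.5%. No share of all probe sets is given for the counts at an unadjusted p. By role, 5 of 10 further polymerase I factors, 3 of 7 snoRNP factors, 26 of 34 small subunit factors, 35 of 43 large subunit factors and 11 of 18 genes of the exosome and RNase MRP rose in P3.

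Taf1d, a subunit of the factor that places polymerase I on its promoter, was at 7.53, 6.60 and 6.94 in Fed rats, 7.86, 7.94 and 8.04 in P2 rats and 9.04, 9.02 and 9.35 in P3 rats, a rise of 2.11 in P3 (adjusted p 6.32e-05). Nolc1, a nucleolar chaperone of snoRNPs and polymerase I, rose by 0.67 in P3. Among snoRNP assembly factors, Nufip1 rose by 1.18 and Shq1 by 1.06. Aatf and the kinase Riok3, of the small subunit list, rose by 1.62 and 1.32 in P3 and by 0.52 and 0.82 in P2. The helicase Ddx27 and Nol8, of the large subunit list, rose by 1.94 and 1.85 in P3. In RNase P and RNase MRP, Rpp14 and Rpp40 rose by 1.29 and 0.92. Pop4, of the same complexes, fell by 0.54 and Pop5 fell by 0.34, and of the subunit factors Emg1, a methyltransferase of the small subunit, fell by 0.85 and Bccip fell by 0.34. These 4 genes were chosen for their direction after their values were seen. The P3 call of Bccip was close to the threshold (adjusted p 0.0488), as was that of Pop5 (0.0462).

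Myc, the activator named above, was at 6.17, 5.99 and 6.10 in Fed rats, 7.55, 7.73 and 7.52 in P2 rats and 9.19, 9.12 and 9.59 in P3 rats. The groups did not overlap, and Myc rose by 1.52 in P2 (2.86-fold, adjusted p 0.000269) and by 3.21 in P3 (9.28-fold, adjusted p 4.21e-07). Its partner Max rose by 0.75 in P2 (adjusted p 0.00231) and by 1.25 in P3 (adjusted p 1.83e-05). Of the other 7 measured genes of the Myc network, Mlx rose by 0.98, Mxd1 by 0.55 and Mnt by 0.34 in P3 versus Fed. Mxi1 was not called against Fed, at 0.33 in P2 and -0.27 in P3 (adjusted p 0.207 and 0.196, limma). It fell by 0.60 in P3 versus P2 (adjusted p 0.0179). The measured factors with CACGTG in the promoter had a median change of 0.83 in P3, with 11 of 13 called higher, and those without it a median of 1.01, with 30 of 33 called higher. The part of Myc in these changes was not tested.

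Markers of other cells in the muscle were read from lists beside the factors. For dividing cells, 9 of 10 markers were measured, of which Pcna rose and Top2a, Ccnb2 and Bub1 fell in P3 versus Fed. The log2 of the summed intensity of the 9 was 9.08 to 9.37 in P3 rats and 8.86 to 8.96 in Fed rats. Pcna, which rose by 1.14, had the highest level of the list in P3 and weighed most in this sum. Aurkb, not called (adjusted p 0.351, limma), was at 6.83 in P3 replicate 2, the rat with the sum of 9.37. The mean log2 level of the 9 markers, relative to the Fed mean, was -0.22, 0.03 and -0.24 in P3 rats. Only 2 of the 9 estimates in P3 versus Fed were positive, with a median of -0.27. Satellite cell markers fell in 3 of 7 cases in P3, among them Myod1, which fell by 3.17, with a summed level of 8.78 to 8.87 in P3 rats and 9.92 to 10.53 in Fed rats. Markers of fibro-adipogenic cells fell in 5 of 7 cases in P3, among them the collagen Col1a1, which fell by 4.18. Pdgfra and Dcn were not called, with differences of -0.39 and 0.39 (adjusted p 0.377 and 0.0924, limma). The summed level was 12.04 to 12.63 in P3 rats and 13.51 to 13.70 in Fed rats, where Col1a1, at a mean of 12.46, was the highest of the list. Of 10 macrophage markers only Cd163 rose in P3 (summed level 9.98 to 10.78 in P3 rats and 10.02 to 10.75 in Fed rats), and of 7 endothelial markers only Pecam1 did (11.31 to 11.95 in P3 rats and 11.41 to 11.49 in Fed rats). Of 6 lymphocyte markers 0 were called in P3 by limma, and 1 was lower at an unadjusted p under 0.05. Adipocyte markers rose in 3 of 7 cases in P2, with a summed level of 10.78 to 10.94 in P2 rats and 10.04 to 10.14 in Fed rats, while Fabp4 fell in P3. Of the 10 fiber markers, Pvalb fell by 1.87, Tnni2 fell by 0.72 and Myl11 fell by 0.33 in P3. The part of these cells in the rise of the factors was not tested.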

How the data were processed

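RNA of whole TIB muscle, depleted of ribosomal RNA, was hybridised to Affymetrix Rat Gene 1.0 ST arrays, 1 per rat (3 Fed, 3 P2, 3 P3). The authors made the deposited log2 intensities in Affymetrix Expression Console 1.1 (submitters' processing notes) with sketch quantile normalization and median polish, as in RMA, so that each value is relative to the other transcripts of its array. The genome build is not given in the sources used here. Ribosomal RNA itself was not measured, and 3 arrays per group limit the precision.

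The 29215 probe sets were used as deposited. Of these, 15310 carry 1 gene symbol in the platform annotation, 323 several and 13582 none, and Rrn3 was only on a probe set with several. One limma model (version 3.58.1, R 4.3.3) held the 3 group means over the 9 arrays, with contrasts between groups and eBayes moderation (2.87 prior degrees of freedom), p-values were adjusted by the Benjamini-Hochberg method over all probe sets of each comparison, and no list was tested as a set. The fit was tested on simulated data. Promoters were read from a RefSeq table (GRCr8). Figures were drawn with matplotlib 3.10.9.

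Members, roles and lists were chosen with earlier results of these data known. Values are given, by rule, for the 4 called members of each role with the largest change in P3 and the 1 with the smallest, the 12 members with the largest called change in P2, members that fell in P3, members called in P3 versus P2 against the sign of their P2 estimate, the 2 most changed genes of each other assembly list and the called genes of the Myc network. Other normalizations, filters, fits, probe set rules, a replicate block, the methods' analysis of variance with Tukey's test and the removal of single arrays were run as alternatives.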

Additional observations from a re-analysis of the deposited data

Results flagged for a closer look

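For 3 factors the estimates in P2 and P3, each against Fed, had opposite signs while the difference between the phases passed the limma test. Heatr1 differed by 1.05 between P3 and P2 (adjusted p 0.000845), with -0.03 in P2 and 1.02 in P3 versus Fed. Bop1 differed by 0.50 (adjusted p 0.0147), with -0.03 in P2 and 0.47 in P3 versus Fed. Rrp15 differed by 0.45 (adjusted p 0.00733), with -0.22 in P2 and 0.23 in P3 versus Fed. None of the 3 estimates in P2 was called (adjusted p 0.933, 0.924 and 0.179 in the order given).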

How the results depend on the processing

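The direction of the median change of the 52 factors held under the alternatives run, with 0.26 in P2 and 0.92 in P3 versus Fed after quantile normalization once more. The number of factors called was most open in P2. There, 7 were higher than in Fed by the methods' analysis of variance at a Tukey p under 0.001, 17 with only the groups compared in the fit, 18 after quantile normalization once more, and 14 to 23 when 1 array was left out, with 14 without P2 replicate 3. For P3 versus P2 the methods' test gave 20 higher, and leaving out 1 array gave 34 to 41. For P3 versus Fed, the methods' test gave 32 higher and leaving out 1 array 42 to 46. Shares of all probe sets are not given for these alternatives, so their counts have no background beside them. Calls that no left-out array removed numbered 14 of 24 in P2 versus Fed, 43 of 47 in P3 versus Fed and 33 of 41 in P3 versus P2. Deviations of arrays with the same replicate number correlated at -0.24 to 0.12 across groups. No pairing of the rats by these numbers was seen, although 3 arrays per group cannot exclude one. With a replicate block, 16 factors were higher in P2 than in Fed, 45 in P3 than in Fed and 39 in P3 than in P2. Arrays have no read depth, and 3 rats per group limit what can be called.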

Other observations

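The ribosomal proteins themselves were read from probe sets by symbol, with lists chosen after the data were seen. Of 71 genes of cytosolic ribosomal proteins, which the factors assemble into ribosomes, 15 rose and 0 fell in P3 versus Fed (limma), with a median change of 0.16 on the log2 scale. The 15 that rose were 21.1% of the list. Of all probe sets 15.8% rose, and of genes with a probe set of their own 18.3%, so the share called is near the background. The estimate was positive for 60 of the 71 genes, and for 14642 of all 29215 probe sets. All 3 P3 rats lay above all 3 Fed rats for 41 of the 71 genes and below them for 2. Of all probe sets, 22.3% lay above and 20.1% below in this way. Of 68 genes of mitochondrial ribosomal proteins, 3 rose and 38 fell, with a median of -0.40, where 13.4% of all probe sets fell. The 52 biogenesis factors had a median of 0.99 in the same comparison. Whether the groups differ was not tested.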
